A study of Mus musculus with 27 samples.

Results

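The proneural basic helix-loop-helix (bHLH) factors were followed across 12 RNA-seq libraries of J1 mouse embryonic stem cells (mESCs). The 9 members were Neurog1, Neurog2, Neurog3, Neurod1, Neurod4, Olig2, Atoh1, Nhlh1 and Nhlh2, taken as the rows of the gene count tables whose symbol equals one of these names. All 9 were found among the 27080 genes listed. Gas41 (gene symbol Yeats4), a YEATS domain subunit of the complexes that place the histone variant H2A.Z, was knocked down (KD) with a lentiviral short hairpin RNA, either shGas41-1 (3 libraries) or shGas41-2 (2 libraries), and compared with a control shRNA (shNT, 3 libraries) in puromycin-selected cells 8 days after infection. In a second set, embryoid bodies (EBs) at day 6 (2 libraries, replicates 2 and 3) were compared with undifferentiated mESCs at EB day 0 (2 libraries, replicates 2 and 3). Both of these groups carried the control vector, which the labels name shCon. The labels give the shNT libraries the same name. Undifferentiated and KD cells grew without feeders on gelatin with LIF. EBs formed in low-attachment plates without LIF. The study's methods speak of biological repeats for its experiments in general, and the labels do not tie the libraries of a group to separate cultures, so p-values measure the spread between these libraries, which may be technical. The 15 ChIP-seq samples of the series were not analysed here.

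Proneural factors pair with an E-protein (Tcf3, Tcf4 or Tcf12) and bind E-boxes, the motif CANNTG. Most are transcriptional activators, while Olig2 acts mainly as a repressor. The neurogenins and their like commit progenitors to a neuronal fate and switch on Notch ligands, and they are opposed by Id proteins, which take up E-proteins without binding DNA, and by Hes and Hey repressors downstream of Notch. In mESCs these genes are typically silent or weakly transcribed. Neurog1 and Neurog2 specify sensory and cortical neurons. Neurog3 specifies the endocrine cells of the pancreas and gut, and Neurod1 acts downstream of neurogenins in neurons and endocrine cells. Neurod4 acts in retinal and spinal interneurons, Olig2 in motor neuron and oligodendrocyte progenitors, and Atoh1 in cerebellar granule cells and inner ear hair cells. Nhlh1 and Nhlh2 mark young neurons.

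Total counts were 59224537 to 81524773 per library, so that the floor of 3 counts used here corresponded to 0.0368 to 0.0507 CPM (the count relative to the library total). Levels are given as CPM scaled by the trimmed mean of M values (TMM), with mean ± SD, and raw counts are given beside them. Yeats4 lay at 50.9 to 61.2 CPM in shNT, 3.46 to 5.10 CPM in shGas41-1 and 7.95 to 8.81 CPM in shGas41-2, so the targeted gene was lower in every KD library than in every shNT library. The EB labels were checked against marker lists. Of 10 mESC markers 8 fell at EB day 6, led by Klf4 (log2 fold change -5.64) and Zfp42 (-4.87), and all 6 mesoderm markers rose. In the shGas41-1 libraries 2 of the 10 mESC markers, Klf4 (-1.13) and Esrrb (-1.04), fell against shNT, and in shGas41-2 none of the 10 was called.

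The promoters of Neurog1, Neurog3 and Atoh1, the members that rose in shGas41-1, and of Neurod1, the member with the most counts, are shown as the 300 bases from 250 before to 50 after the RefSeq start, 5′ to 3′ in the direction of transcription. They come from the RefSeq promoter table and are placed in mm9 by exact match, with the E-box motif CANNTG in capitals. That motif reads the same on both strands.
Neurog1 promoter, chr13:56353492-56353791, minus strand: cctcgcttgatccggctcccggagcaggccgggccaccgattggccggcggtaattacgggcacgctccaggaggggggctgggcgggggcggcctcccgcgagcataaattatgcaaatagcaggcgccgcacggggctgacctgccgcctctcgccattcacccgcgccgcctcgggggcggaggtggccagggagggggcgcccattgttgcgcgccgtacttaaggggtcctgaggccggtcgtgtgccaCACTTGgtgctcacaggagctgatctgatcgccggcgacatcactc
Neurog3 promoter, chr10:61595588-61595887, plus strand: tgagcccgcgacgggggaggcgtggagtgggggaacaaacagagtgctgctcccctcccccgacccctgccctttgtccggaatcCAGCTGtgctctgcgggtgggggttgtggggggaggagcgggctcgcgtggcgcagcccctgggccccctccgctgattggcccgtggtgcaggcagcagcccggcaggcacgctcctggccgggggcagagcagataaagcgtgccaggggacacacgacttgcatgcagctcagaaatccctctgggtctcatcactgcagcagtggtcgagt
Atoh1 promoter, chr6:64678869-64679168, plus strand: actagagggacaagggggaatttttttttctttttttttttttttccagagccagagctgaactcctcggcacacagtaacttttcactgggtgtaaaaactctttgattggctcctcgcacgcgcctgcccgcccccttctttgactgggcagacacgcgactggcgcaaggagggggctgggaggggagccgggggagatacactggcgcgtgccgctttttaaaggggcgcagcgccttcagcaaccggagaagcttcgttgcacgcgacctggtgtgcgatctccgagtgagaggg
Neurod1 promoter, chr2:79296744-79297043, minus strand: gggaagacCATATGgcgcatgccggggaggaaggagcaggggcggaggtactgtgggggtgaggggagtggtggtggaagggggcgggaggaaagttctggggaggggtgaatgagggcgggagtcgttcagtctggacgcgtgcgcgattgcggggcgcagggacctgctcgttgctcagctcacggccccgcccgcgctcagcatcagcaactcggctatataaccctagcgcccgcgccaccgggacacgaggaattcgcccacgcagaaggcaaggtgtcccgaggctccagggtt

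Neurog1, Neurog3 and Neurod1 each held 1 CANNTG in this window and Atoh1 held 0, while 72.3% of 32851 RefSeq promoters of the same length held at least 1. The Neurog3 match was CAGCTG, which 16.3% of promoters held. The motif is short and a match is a description of the letters only. GC content was 69.3% at Neurog1, 68.3% at Neurog3, 66.7% at Neurod1, 65.0% at Olig2 and 56.7% at Atoh1, against a median of 52.7% over all promoters. The observed to expected CpG ratio was 0.891 at Neurog1, 0.547 at Neurog3, 0.837 at Neurod1, 0.815 at Olig2 and 0.840 at Atoh1. Those 5 genes, which were the members with enough counts to be tested, were all above the median ratio of 0.384 over all promoters. Of the other 4 members, Neurog2 had a ratio of 0.570 and Nhlh1, Nhlh2 and both Neurod4 promoters had 0.0840 to 0.318. The GC content of these 4 was 58.0% at Neurog2, 56.3% at Nhlh1, 43.3% at Nhlh2, and 52.3% and 54.7% at the Neurod4 promoters. A GC content above the median was thus not limited to the members that were tested.

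Most proneural genes were at or near the floor in these cells, and their summed counts were carried by Neurod1 and Neurog3. Over the 12 libraries Neurod1 held 73.8% of all counts of the 9 members and Neurog3 held 16.5%. These were the only members above the floor in all 12 libraries. Olig2 was above the floor in 10 libraries, Nhlh2 in 8, Atoh1 and Nhlh1 in 7 each, Neurog1 in 6, Neurod4 in 1 and Neurog2 in none. Member counts between 1 and 20 were even in 33 of 48 cases, against 51.9% of such values over the genes in all 3 tables. The reason was not tested. The exact intervals given below treat every count as independent, and they would be too narrow if counts came in pairs.

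Levels can be compared between genes only per length of transcript. In CPM per kilobase, the shNT libraries had Neurod1 at 1.72 ± 0.355, Neurog3 at 0.423 ± 0.0279 and every other member at 0.0462 or less (n = 3). In shGas41-1 Neurod1 was at 1.78 ± 0.162 and Neurog3 at 1.61 ± 0.389, whose libraries overlapped, followed by Neurog1 at 0.409 ± 0.229, Atoh1 at 0.183 ± 0.0568 and Olig2 at 0.101 ± 0.0371. The Atoh1 and Olig2 ranges of these 3 libraries overlapped only narrowly, from 0.126 to 0.130. In EB day 0 cells Neurod1 was the highest at 4.81 ± 2.08, ahead of Neurog3 at 0.837 ± 0.0405 (n = 2).

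**Figure D1:**
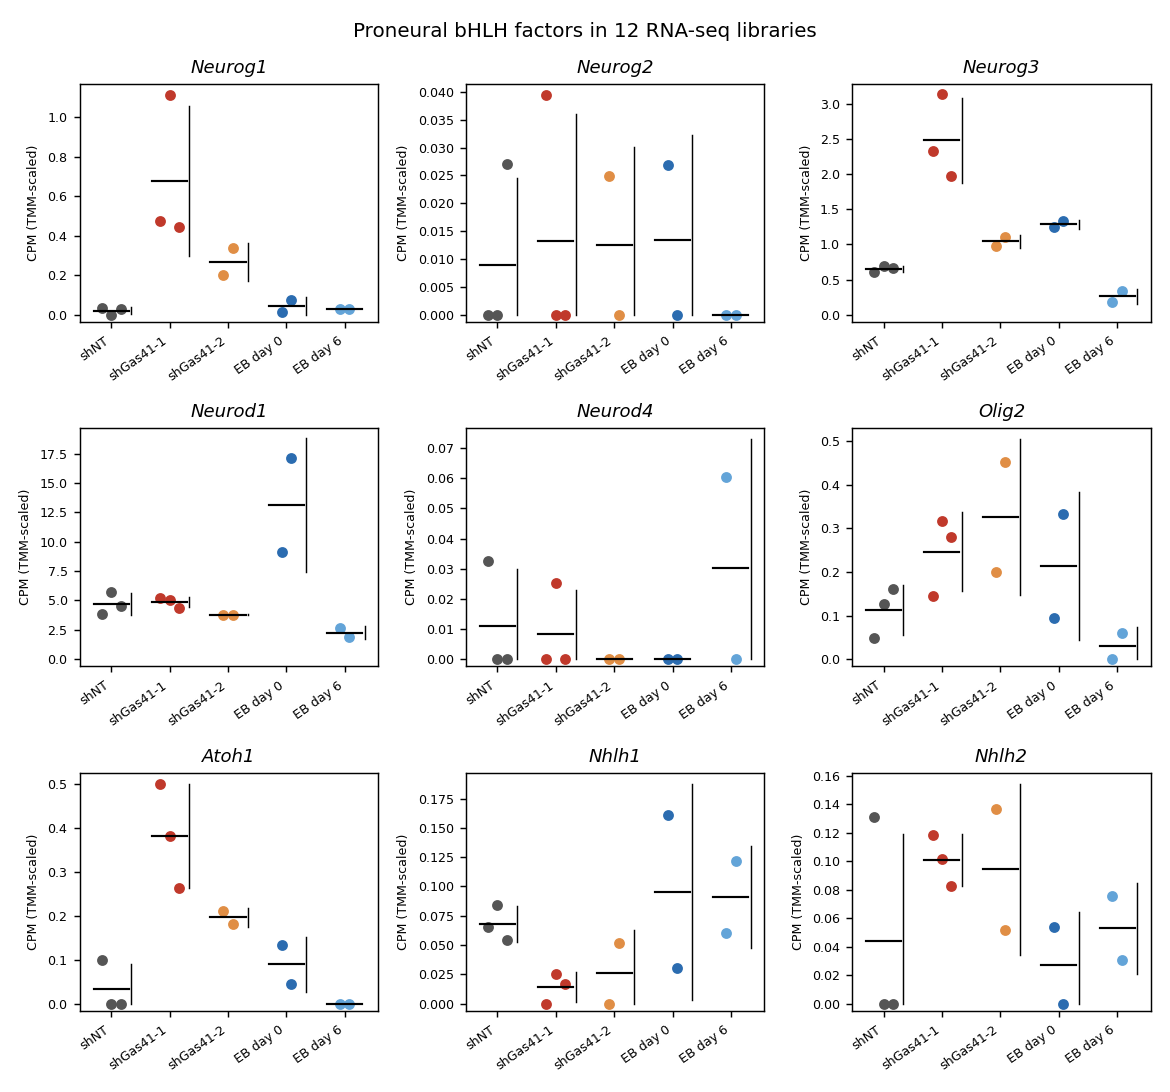
TMM-scaled CPM (vertical axes, a separate linear scale for each gene) of the 9 proneural factors in each of the 12 libraries, grouped by condition, with the group mean as a horizontal bar and ± 1 SD as a vertical line that stops at 0. Neurog1, Neurog3 and Atoh1 are higher in every shGas41-1 and shGas41-2 library than in every shNT library, and Neurod1 is highest at EB day 0.

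The first comparison asked which proneural genes changed when Gas41 was depleted with shGas41-1. Neurog1, Neurog3 and Atoh1 rose. Neurod1, the most abundant member, differed from shNT by less than the spread between libraries. A gene was called when it changed at least 2-fold at a Benjamini-Hochberg adjusted p (FDR) of 0.05 or less in edgeR's quasi-likelihood test. Of the 9 members 5 passed the filter on low counts, 3 of those 5 were called higher and none lower. Over all 18274 genes tested, 7.90% were called higher and 2.40% lower, with a median log2 fold change of 0.0200. The filter can let a gene through on the group in which it is high. Neurog1 (0 to 2 counts in shNT) and Atoh1 (0 to 6) passed it through the KD group. Neither the count tested nor the count called is therefore evidence about the family.

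Neurog1 (ENSMUSG00000048904, mm9 chr13:56351866-56353524, minus strand) had 2, 0 and 2 counts in the 3 shNT libraries and 36, 88 and 27 counts in the 3 shGas41-1 libraries. The shNT libraries were all within the floor of 3 counts and the groups did not overlap. The second shGas41-1 library was the highest of the 12 by far, at 1.115 CPM against 0.474 and 0.444 CPM in the other two. Pooled over libraries, 151 counts against 4 gave a ratio of 34.8 (exact 95% interval 13.3 to 129, counting error only). The fitted log2 fold change was 5.03 (SE 0.716, FDR = 0.00346), a size that depends on the prior count because shNT was so low.

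Neurog3 (ENSMUSG00000044312, chr10:61595838-61597511, plus strand) had 37, 49 and 49 counts in shNT and 177, 248 and 120 counts in shGas41-1. Mean levels were 0.652 ± 0.0430 CPM in shNT and 2.48 ± 0.599 CPM in shGas41-1 (n = 3 each), and the lowest KD library, at 1.97 CPM, was well above the highest shNT library, at 0.690 CPM. The log2 fold change was 1.95 (SE 0.244, FDR = 0.00295). This was the best measured rise of the family, since both groups had counts far above the floor. Neurog3 shares 273 exonic bases with 2010107G23Rik on the opposite strand, and the library kit did not mark strand, so reads there cannot be assigned to one gene. The log2 fold change of 2010107G23Rik itself was 0.0888 (SE 0.194, FDR = 0.779).

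Atoh1 (ENSMUSG00000073043, chr6:64679140-64681227, plus strand) had 6, 0 and 0 counts in shNT and 38, 30 and 16 counts in shGas41-1. The groups did not overlap, but all 6 shNT counts came from 1 library. The pooled ratio was 12.9 (exact 95% interval 5.68 to 36.1) and the fitted log2 fold change was 3.63 (SE 0.858, FDR = 0.0215). The Atoh1 call was lost when shNT replicate 2 (FDR = 0.0723), shNT replicate 3 (FDR = 0.0662) or shGas41-1 replicate 1 (FDR = 0.0762) was left out, and without shNT replicate 1 the fitted log2 value rose to 7.80.

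Olig2 (ENSMUSG00000039830, chr16:91225795-91228922, plus strand) had 3, 9 and 12 counts in shNT and 11, 25 and 17 in shGas41-1. The groups overlapped and the log2 fold change of 1.11 (95% interval -0.0358 to 2.26, FDR = 0.154) did not pass. Neurod1 (ENSMUSG00000034701, chr2:79292678-79296908, minus strand) had 233, 407 and 337 counts in shNT and 397, 394 and 266 in shGas41-1. Its log2 fold change was 0.07 (95% interval -0.366 to 0.506, FDR = 0.824), and its sign turned to -0.00334 with library size scaling and to -0.0602 without shNT replicate 1. A doubling of Neurod1 therefore lay outside the interval. Neurod1 lies inside Cerkl on the same strand and shares 201 exonic bases with it, and 154 with the opposite-strand lincRNA Gm17325. Cerkl rose by a log2 fold change of 1.5 (SE 0.403, FDR = 0.0343) from 8 to 21 counts in shNT to 41 to 55 counts in shGas41-1. Its counts were few beside those of Neurod1.

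The 4 remaining members did not pass the filter for the test. Nhlh1 (chr1:173982423-173987704, minus strand) had 4, 6 and 4 counts in shNT and 0, 2 and 1 in shGas41-1, the one member whose KD libraries all lay below the shNT libraries. Its pooled ratio was 0.197 (exact 95% interval 0.0364 to 0.707), and in a fit without the filter its log2 fold change of -2.15 did not pass (FDR = 0.201). Nhlh2 (chr3:101814068-101819415, plus strand) had 8, 0 and 0 counts in shNT and 9, 8 and 5 in shGas41-1, which overlapped because of the first shNT library, with a pooled ratio of 2.53 (exact 95% interval 1.09 to 6.58). Neurog2 (chr3:127336054-127338549, plus strand) and Neurod4 (chr10:129705209-129717296, minus strand) had at most 3 counts in any library of either group. A difference in Neurog2 or Neurod4 was not detectable at this depth.

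The second hairpin tested the same question with a different target sequence. Neurog1 rose again, and the other tested members were not called. Of the 9 members 5 were tested, 1 was called higher and none lower, against 3.96% of 18405 genes higher and 0.869% lower. Neurog1, the member called, again passed the filter through the KD group, so this count is not evidence about the family. The 2 hairpins were compared with the same 3 shNT libraries, so their results are not independent. Neurog1 had 16 and 26 counts in shGas41-2, above the 2, 0 and 2 counts of shNT. The pooled ratio was 13.1 (exact 95% interval 4.74 to 50.1) and the fitted log2 fold change was 3.67 (SE 0.754, FDR = 0.0250). The Neurog1 call was lost without shNT replicate 2 (FDR = 0.0620), without shGas41-2 replicate 1 (FDR = 0.0930) and without shGas41-2 replicate 2 (FDR = 0.195).

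Neurog3 had 79 and 86 counts in shGas41-2, or 0.983 and 1.11 CPM, both above the 0.605 to 0.690 CPM of shNT. The log2 fold change was 0.69 (SE 0.242, 95% interval 0.126 to 1.25, FDR = 0.110). Atoh1 had 17 and 14 counts and Olig2 16 and 35 counts, and neither gene's groups overlapped with shNT. Their log2 fold changes were 2.67 (FDR = 0.136) and 1.49 (FDR = 0.136). The Atoh1 result depended on the test and on shNT replicate 1, the library with 6 Atoh1 counts. With edgeR's exact test on all 5 libraries Atoh1 was called (log2 fold change 2.64, FDR = 0.0147). Without that shNT library it was also called, at a fitted log2 value of 6.91 (FDR = 0.00414) against a shNT group then wholly at 0, a size that has no bound. Neurod1 had 300 and 293 counts, and both libraries, at 3.73 and 3.79 CPM, lay just under the lowest shNT library at 3.81 CPM. The log2 fold change was -0.31 (95% interval -0.771 to 0.141, FDR = 0.337). Of the untested members, Nhlh1 had 0 and 4 counts, Nhlh2 11 and 4, Neurog2 2 and 0, and Neurod4 none.

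**Figure D2:**
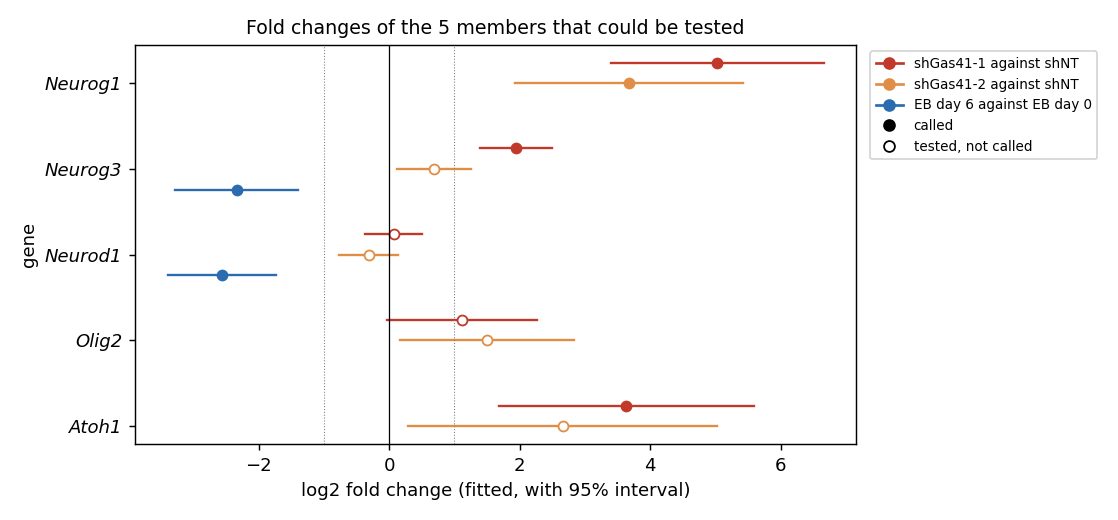
Fitted log2 fold change with its 95% interval (horizontal axis) for the 5 members that passed the count filter, in red for shGas41-1, orange for shGas41-2 and blue for EB day 6, with filled points for called genes and dotted lines at a 2-fold change. Neurog1 is called with both hairpins, and the 2 members tested in EBs, Neurog3 and Neurod1, are called lower there.

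The hairpins were then compared with each other. Yeats4 was lower in shGas41-1 than in shGas41-2 in every library, with a log2 difference of -0.94 (SE 0.178, FDR = 0.198). No member was called and no gene of 19146 was (0%), although 1348 genes had an unadjusted p under 0.05 in edgeR, and DESeq2 called 39 higher and 32 lower. Neurog3 differed most clearly, at a log2 difference of 1.26 (95% interval 0.702 to 1.82, unadjusted p = 0.000562, FDR = 0.231), and all 3 shGas41-1 libraries exceeded both shGas41-2 libraries. DESeq2's Wald test called this difference (adjusted p = 0.00468). Neurog1 differed by 1.36 (95% interval 0.126 to 2.60, FDR = 0.648), Atoh1 by 0.98 (-0.602 to 2.55, FDR = 0.868), Neurod1 by 0.39 (-0.0537 to 0.830, FDR = 0.773) and Olig2 by -0.38 (-1.58 to 0.822, FDR = 0.942). The intervals of Neurog1, Neurog3, Atoh1 and Olig2 include differences of 2-fold or more.

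EB formation asked how the same genes behaved during differentiation. Neurog3 and Neurod1 fell between EB day 0 and day 6, and no proneural gene was called higher. Of the 9 members 2 were tested and both were called lower, against 14.7% of 18287 genes lower and 16.6% higher. Both fell while 5 of 8 tested neural progenitor markers rose, among them Fabp7 (0 to 5 counts at day 0 and 202 to 260 at day 6), Nes (log2 fold change 4.15), Zic1 (3.76) and Sox3 (3.21). In bulk RNA, fewer cells that express a gene cannot be told apart from less RNA per cell.

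Neurod1 had 681 and 1132 counts at EB day 0 and 176 and 121 at day 6. Means were 13.1 ± 5.68 and 2.25 ± 0.581 CPM (n = 2 each), and the groups were far apart although the day 0 libraries differed from each other by more than any other pair of Neurod1 replicates. The log2 fold change was -2.56 (SE 0.345, FDR = 0.00104). Cerkl, which shares exonic bases with Neurod1, changed by the same fitted value, -2.56 (SE 0.690, FDR = 0.0182), from 16 and 28 counts to 5 and 2.

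Neurog3 had 93 and 88 counts at day 0 and 12 and 22 at day 6. Means were 1.29 ± 0.0623 and 0.258 ± 0.108 CPM, with a log2 fold change of -2.33 (SE 0.392, FDR = 0.00266). The call was lost without EB day 0 replicate 3 (log2 fold change -2.29, FDR = 0.0599), a fit in which the lone day 0 library was assumed to vary like the day 6 pair.

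The other members were too low for the test within the EB set. Olig2 had 7 and 22 counts at day 0 and 0 and 4 at day 6, so that both day 6 libraries lay below both day 0 libraries, and the pooled count was 7.32 times lower at day 6 (exact 95% interval 2.57 to 28.6). Atoh1 had 10 and 3 counts at day 0 and none at day 6, at least 2.19-fold lower when each day 6 library is set to the floor of 3 counts. In a fit of the EB set without the filter, neither Olig2 (FDR = 0.1) nor Atoh1 (FDR = 0.0613) was called. In a single fit over all 12 libraries Olig2 (FDR = 0.0473) and Atoh1 (FDR = 0.0431) were called lower at day 6. They entered that fit through the KD set, which also shares its spread, so nothing is read from those calls. Neurog1 had 1 and 5 counts at day 0 and 2 and 2 at day 6. Nhlh1 had 12 and 2 against 4 and 8, Nhlh2 4 and 0 against 5 and 2, Neurod4 0 and 0 against 4 and 0, and Neurog2 2 and 0 against 0 and 0. These overlapped or were within the floor.

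The undifferentiated control cells of the 2 sets were not at the same level. EB day 0 cells had 1.25 and 1.33 CPM of Neurog3, above the 0.605 to 0.690 CPM of shNT and also above the 0.983 and 1.11 CPM of shGas41-2. Neurod1 was at 9.12 and 17.1 CPM at EB day 0 against 3.81 to 5.73 CPM in shNT. The EB day 0 libraries had 1 and 5 Neurog1 counts, under the 16 to 88 counts of every KD library. The 2 sets were not tested against each other, and the set cannot be told apart from other differences between these cultures.

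The change on KD was tested against the change on EB formation in 1 fit over the 12 libraries. With both hairpins 5 members were tested and were called higher on KD relative to EB formation, where 17.8% of 19613 genes were called higher for shGas41-1 and 16.8% for shGas41-2. Nothing is read from this count, nor from the single calls of Neurog1, Atoh1 and Olig2, whose values are given as a description only. Neurog3 and Neurod1 alone passed the filter in both sets. Neurog1, Atoh1 and Olig2 did not pass it within the EB set and entered through the KD set. For Neurog3 the difference between the log2 fold changes was 4.24 (SE 0.418, FDR = 1.03e-05) with shGas41-1 and 2.99 (SE 0.434, FDR = 0.000189) with shGas41-2. For Neurod1 it was 2.59 (SE 0.379, FDR = 0.000184) and 2.22 (SE 0.394, FDR = 0.000766), set against -2.56 in EBs and 0.07 and -0.31 on KD. Olig2 gave 3.82 (FDR = 0.0255) and 4.22 (FDR = 0.0185). Neurog1 gave 5.49 (FDR = 0.00889) and 4.15 (FDR = 0.0395). Atoh1 passed with FDR = 0.00418 and FDR = 0.0113, but both EB day 6 libraries were at 0 and its fitted size has no bound.

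For shGas41-1 the calls of Neurog1 (FDR = 0.246) and Olig2 (FDR = 0.166) were lost without EB day 0 replicate 3, as was that of Olig2 without EB day 6 replicate 2 (FDR = 0.0962). For shGas41-2 the Neurog1 call was lost without shNT replicate 2 (FDR = 0.0667), shNT replicate 3 (0.0541), shGas41-2 replicate 2 (0.0922), EB day 0 replicate 3 (0.437), EB day 6 replicate 2 (0.0861) or EB day 6 replicate 3 (0.0901). The Olig2 call of shGas41-2 was lost without shGas41-2 replicate 2 (FDR = 0.0788), EB day 0 replicate 3 (0.126) or EB day 6 replicate 2 (0.0701), and the Atoh1 call without EB day 0 replicate 2 (0.0740). The sizes moved as well. Over the fits without 1 library, the Olig2 difference was 2.66 to 8.02 with shGas41-1 and 3.06 to 8.42 with shGas41-2, highest in both without EB day 6 replicate 3, which leaves a day 6 library with 0 Olig2 counts. The lowest values were those without EB day 0 replicate 3. That library also gave the lowest Neurog1 differences when left out, 3.92 and 2.58. The Neurog3 and Neurod1 differences passed whichever library was left out.

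Other bHLH genes of neural lineages, a list of 9, followed in part. For this list and those below, the filter has the same limit as for the members. The shares of all genes called, given above for each comparison, apply to each list. With shGas41-1, 2 of the 4 tested were higher and none lower. Olig3, a factor of dorsal spinal cord progenitors, rose by 3.57 (FDR = 0.00761) and Bhlhe22, a repressor in cortical and spinal neurons, by 1.56 (FDR = 0.0158). Olig3 had 0 to 6 counts per shNT library and 30 to 58 in shGas41-1, so its fitted size depends on the prior count. With shGas41-2, none of 4 tested was called by edgeR, although Olig3, at 0.220 and 0.236 CPM, lay above the 0 to 0.0981 CPM of shNT. In EBs 1 of 4 was higher, Bhlhe22 at 1.77 (FDR = 0.00105), and 2 were lower, Olig1 at -2.51 (FDR = 0.00490) and Bhlhe23 at -2.61 (FDR = 0.00220).

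The E-protein partners were expressed throughout, also in libraries in which the proneural genes were near the floor. Tcf3 was at 35.01 to 110 CPM, Tcf4 at 17.6 to 53.7 CPM and Tcf12 at 15.9 to 124 CPM over the 12 libraries. None of the 3 was called on KD. Their log2 fold changes were -0.40, -0.59 and -0.45 with shGas41-1 and -0.36, -0.43 and -0.36 with shGas41-2, of which Tcf4 with shGas41-1 had FDR = 0.0350 at less than the 2-fold threshold. In EBs Tcf12 rose by 1.58 (SE 0.0867, FDR = 2.98e-05), from 39.2 and 38.4 CPM to 111 and 124 CPM. Tcf3 changed by 0.59 (FDR = 0.00115) and Tcf4 by 0.22 (FDR = 0.0523).

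Among the Id inhibitors, Id2 rose with both hairpins. Id2 had 316 to 494 counts in shNT, 3484 to 4074 in shGas41-1 and 1602 to 1840 in shGas41-2, with 3 groups that did not overlap. Its log2 fold change was 3.27 (SE 0.208, FDR = 0.000707) with shGas41-1 and 1.99 (SE 0.201, FDR = 0.00184) with shGas41-2. With shGas41-1, 2 of the 4 Id genes were called higher, the other being Id3 at 1.2 (FDR = 0.00417). Id1 at 0.96 (FDR = 0.00695) and Id4 at 0.83 (FDR = 0.0276) were under the 2-fold threshold. With shGas41-2 Id1, Id3 and Id4 had 0.63 (FDR = 0.0758), 0.78 (FDR = 0.0105) and 0.54 (FDR = 0.151). In EBs none of the 4 was called, with Id2 at 0.89 (FDR = 0.00366), Id3 at 0.74 (FDR = 0.00499), Id1 at -0.13 (FDR = 0.620) and Id4 at -0.37 (FDR = 0.250).

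**Figure D3:**
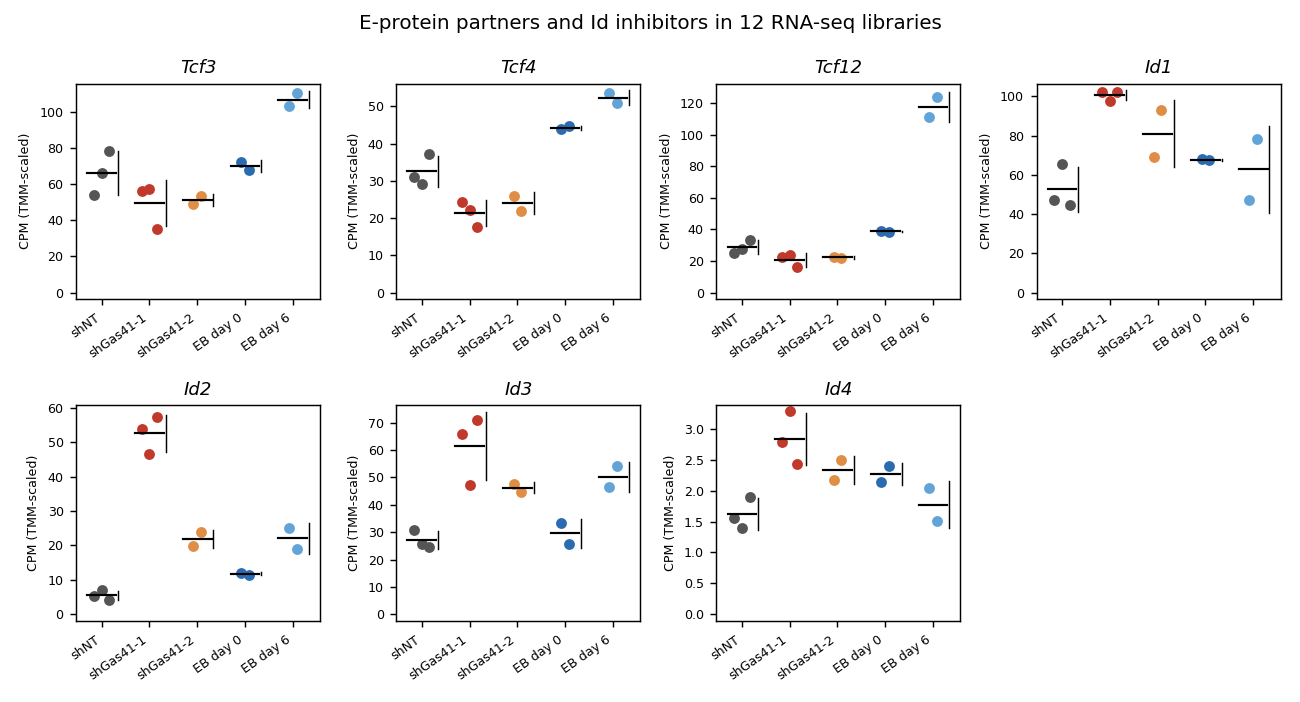
TMM-scaled CPM (vertical axes, a separate linear scale from 0 for each gene) of 3 E-protein partners and 4 Id inhibitors in each of the 12 libraries, with the group mean as a horizontal bar and ± 1 SD as a vertical line. Id2 is higher in every KD library than in every shNT library, and Tcf12 is highest at EB day 6.

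None of the 3 tested Hes and Hey repressors was called with either hairpin, and 2 of 3 rose in EBs, Hey1 at 1.84 (FDR = 0.00722) and Hey2 at 1.13 (FDR = 0.0473). Genes known to be activated by proneural factors, a list of 18, rose in part. With shGas41-1, 5 of 11 tested were higher and none lower, against 7.90% and 2.40% of all genes tested. Their median log2 fold change was 0.49 against 0.0200 over all genes. Insm1 (3 to 12 counts in shNT), Nkx2-2 (2 to 13) and Ebf3 (5 to 6) passed the filter through the KD group. Gadd45g (9 to 31) also fell short of it in part of the shNT libraries. Neither the count nor the median is therefore evidence about the list. The 4 with the largest change were Gadd45g, a growth arrest gene (3.71, FDR = 0.00267), Insm1, a zinc finger factor of neuronal and endocrine progenitors (3.13, FDR = 0.00444), the Notch ligand Dll1 (2.35, FDR = 0.00263), and Nkx2-2, a homeobox factor of the ventral neural tube and pancreas (2.29, FDR = 0.0380). With shGas41-2, 2 of 10 were higher and none lower, Gadd45g at 2.17 (FDR = 0.0274) and Dll1 at 1.44 (FDR = 0.0225).

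Dll1 had 22 to 39 counts in shNT, 102 to 215 in shGas41-1 and 80 to 112 in shGas41-2. It rose more in EBs, from 53 and 68 counts to 512 and 2281 (log2 fold change 4.59, FDR = 0.00219), where Neurog3 and Neurod1 fell. The 2 EB day 6 libraries differed more than 4-fold from each other in Dll1. In EBs 4 of the 13 tested genes of this list were higher and none lower, the others being Barhl2 (4.77, FDR = 0.000551), Dll3 (3.80, FDR = 0.00158) and Hes6 (1.48, FDR = 0.000612). Gadd45g and Insm1 were not called in EBs. Dll1 is also active in the mesoderm that forms somites, and the mesoderm markers summed to 1269 to 1879 CPM at EB day 6 and 9.85 to 10.4 CPM at day 0. The part of those cells in the Dll1 value was not tested.

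**Figure D4:**
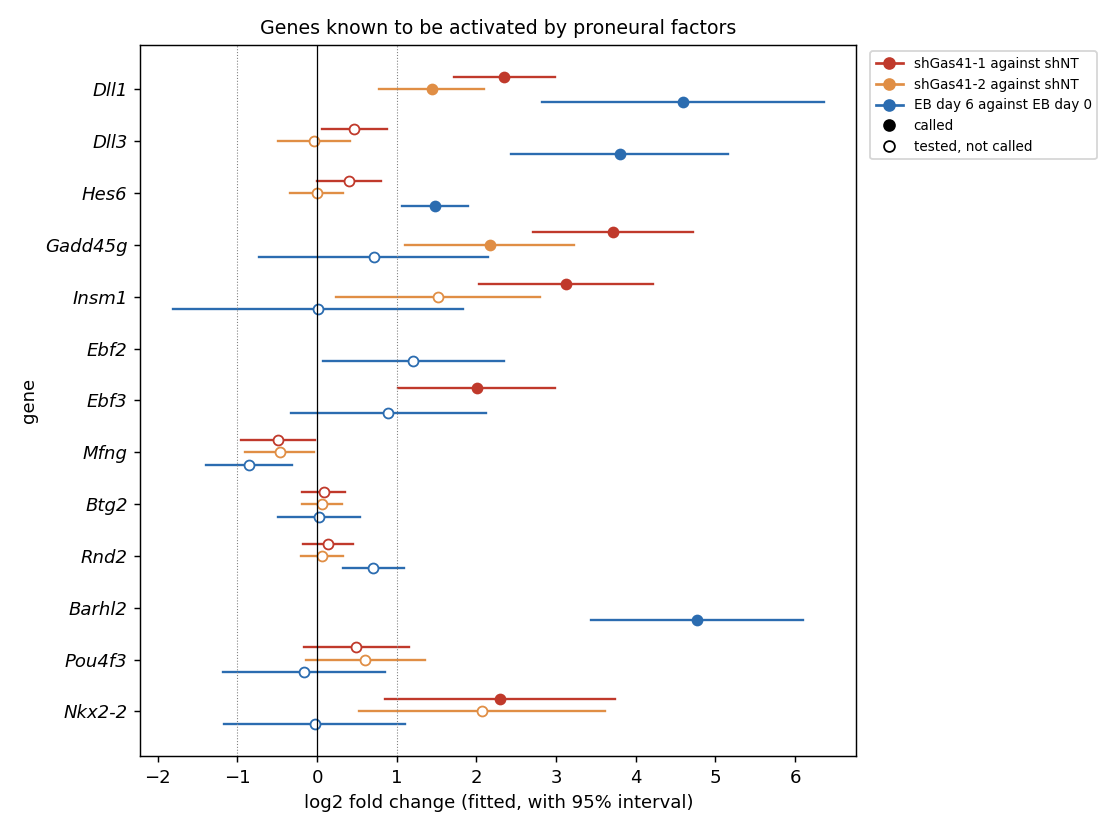
Fitted log2 fold change with its 95% interval (horizontal axis) for the genes known to be activated by proneural factors that passed the count filter in at least 1 comparison, in red for shGas41-1, orange for shGas41-2 and blue for EB day 6, with filled points for called genes. Dll1 is called higher in all 3 comparisons, Gadd45g with both hairpins, and Dll3, Hes6 and Barhl2 in EBs.

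Some markers of neurons and neural progenitors rose on KD. The neuron list was already high in undifferentiated cells, at a sum of 686 to 755 CPM in shNT. Stmn2 was at a mean of 367 CPM there and Tubb3 at 272.5 CPM, so these genes do not by themselves mark neurons here. With shGas41-1, 3 of 12 tested neuron markers were higher and none lower, the neurofilament genes Nefm (2.05, FDR = 0.00761) and Nefl (1.62, FDR = 0.00936) and the related Ina (1.35, FDR = 0.0112), and with shGas41-2 Nefm (1.80, FDR = 0.0247) and Nefl (1.33, FDR = 0.0236) were. The median over the list was -0.05 with shGas41-1 and 0.16 with shGas41-2. Nefl lies within the annotated span of Nefm on the opposite strand, and the libraries did not mark strand. Their shared exonic bases were not measured, so Nefl and Nefm may not be separate markers here. Of 7 tested neural progenitor markers, 3 were higher with shGas41-1 and 1 with shGas41-2. The former were Pax6 (2.43, FDR = 0.00451), Hoxb4 (1.58, FDR = 0.0420) and Sox3 (1.18, FDR = 0.0368), and the latter was Sox3 (1.11, FDR = 0.0284). In EBs 6 of 13 tested neuron markers were higher and 6 lower, the largest changes being those of Nefm (5.93), Tubb3 (-3.64), Snap25 (2.68) and Dcx, which had 0 counts in both day 0 libraries and 88 and 145 at day 6. With shGas41-1, 1 of 5 tested endoderm markers was higher, Gata6 (1.76, FDR = 0.0188), and 2 of 6 mesoderm markers were lower, Tbx6 (-1.42, FDR = 0.0378) and Eomes (-1.0, FDR = 0.0343). With shGas41-2, Sox7 was the 1 endoderm marker called (1.23, FDR = 0.0292) and no mesoderm marker was. In EBs 4 of 5 endoderm markers were higher, led by Gata6 (6.93) and Foxa2 (5.94), and Sox7 was lower (-3.29).

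Only Neurog3 and Neurod1 were abundant enough, at a mean of 0.5 CPM or more, to look for genes of a like pattern over the 12 libraries. For Neurod1 the nearest of 19613 genes by Pearson correlation of log2(CPM + 0.5) were Dnalc1 (0.965), Zfp365 (0.953) and Slc25a36 (0.931). For Neurog3 they were RP23-425D13.2 (0.950), A330033J07Rik (0.949) and Gm17580 (0.937). The 12 libraries fall into 5 groups in 2 sets, so these values mostly describe group levels and carry no test.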

How the data were processed

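RNA was measured by sequencing in 12 libraries. The authors prepared unstranded TruSeq libraries, read them on a NextSeq 500, aligned the reads to mm9 with TopHat2 (2.0.10 in the submitters' processing notes) and counted them with HTSeq. The deposited values are raw counts per gene in 3 tables, 1 per comparison, and no column of per-sample values was left unused (0). Their log2 fold changes, p-values and FDRs were not used.

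Groups were taken from the labels. The columns of the EB table that hold the day 0 libraries are named as ESC control libraries, and they were matched to the EB day 0 samples by the table's own comparison and the replicate number. The tables were joined on gene ID. With edgeR 4.0.16 (R 4.3.3), genes were filtered by filterByExpr (minimum count 10, minimum total 15), scaled by TMM and tested by the quasi-likelihood F test within each comparison, with the 8 KD-set libraries for shGas41-1 against shGas41-2 and all 12 libraries for effects on KD against EB formation. Genes were called at a 2-fold change and an FDR of 0.05 or less, adjusted over all genes tested. Pooled count ratios have exact binomial intervals, which cover counting error only, as does the floor. The procedure was also run on simulated data, but no result of that run is given here. That run is not used as evidence for calls on members near the floor or for KD against EB formation. Gene positions are from GENCODE vM1 on mm9, and all 9 members matched a RefSeq promoter.

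The members and gene lists were chosen with earlier results of these data known, and 1 gene of these lists is not reported here and was taken out of its list. All 9 members are named. From each list up to 4 called genes with the largest change were to be named, and the E-proteins, Id genes and Yeats4 whether called or not. Alternatives were DESeq2 1.42.0, other scaling, no filter, other thresholds, halved counts, a replicate block, edgeR's exact test, 1 fit over 12 libraries and leaving out each library.

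Depth was 59224537 to 81524773 counts per library.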

Additional observations from a re-analysis of the deposited data

Results flagged for a closer look

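The effects of Gas41 KD and of EB formation differed for both members that could be tested in the 2 sets separately. The difference between the log2 fold changes, tested in edgeR's 12-library fit, was 4.24 for Neurog3 with shGas41-1 (FDR = 1.03e-05) and 2.99 with shGas41-2 (FDR = 0.000189). For Neurod1 it was 2.59 (FDR = 0.000184) and 2.22 (FDR = 0.000766). Neurog3 was higher in all 5 KD libraries than in all 3 shNT libraries and lower in both EB day 6 libraries than in both EB day 0 libraries. Neurod1 was lower in both EB day 6 libraries, and its KD and shNT libraries overlapped with shGas41-1. No group has 4 or more libraries, so single libraries were not screened for distance from their group.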

How the results depend on the processing

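The number of members called higher with shGas41-1 (3) stayed within 1.5 times of that value under every alternative, from 2 to 3 when libraries were left out. With shGas41-2 the count of 1 became 0 with halved counts, which left 2 members tested, 2 with edgeR's exact test, and 0 to 2 when libraries were left out. In EBs the count of 2 became 4 in the fit over 12 libraries and 1 to 3 when libraries were left out. Between the hairpins it was 0, but 1 with DESeq2's Wald test, and 0 to 0 when libraries were left out. For KD against EB formation the 5 calls became 3 to 5 when libraries were left out, with either hairpin. The sign turned for Neurod1 in shGas41-1 against shNT, to -0.00334 with library size scaling and to values from -0.0602 to 0.235 when libraries were left out (below 0 without shNT replicate 1), and for Olig2 between hairpins, where leaving out libraries gave -0.867 to 0.33 (above 0 without shGas41-2 replicate 2). The cause was not tested.

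The deviations of equally numbered libraries from their group means had correlations of 0.00503, 0.145 and -0.387 for shGas41-1 and shNT, 0.336 and 0.239 for shGas41-2 and shNT and 0.0549 for the EB pairs, and the labels do not say that a number marks a shared batch. Both pairs of shGas41-2 were above 0.1, which with 2 pairs does not settle whether they are paired. With a replicate block the count in shGas41-2 against shNT was 3, adding Atoh1 (log2 fold change 2.13, FDR = 0.0321) and Olig2 (1.88, FDR = 0.0114), and the count for shGas41-2 against EB formation was 4. Over all genes the block moved the calls with shGas41-2 from 728 to 1122 higher and with shGas41-1 from 1444 to 1019 higher and from 438 to 302 lower.

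Without the fold threshold the genes called went from 438 to 1412 lower with shGas41-1, from 160 to 730 lower with shGas41-2, and from 3030 to 5584 higher and 2696 to 5195 lower in EBs. With shGas41-2 the 160 lower genes became 249 with the exact test and 246 with library size scaling. Without 1 library, shGas41-2 had 269 to 1174 genes higher and 18 to 293 lower, fewest in both without shGas41-2 replicate 2 and most without shNT replicate 1. In the same way shGas41-1 had 905 to 1510 higher and 290 to 549 lower, and EBs 2041 to 2946 higher and 1669 to 3027 lower. The shares of all genes called that stand beside the members' counts rest on these counts. Depth limits Neurog2, Neurod4, Nhlh1 and Nhlh2, whose counts never passed 12, and fits with 1 library in a group assume that it varies like the other groups.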
